A study of Mus musculus with 4 samples.

Results

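The genes described here are 36 genes of the germ line that somatic cells usually keep silent by DNA methylation, measured in 4 mouse embryonic stem (ES) cell lines. They were found on the array through the RefSeq transcript printed beside each probe: 44 probes mapped to the 36 genes, out of 20257 genes that could be named on an array of 55562 probes with a usable value. Where a gene had several probes, its brightest by mean over the arrays was used. By role, 9 members act in the piRNA pathway and the nuage, 9 on meiotic chromosomes, 7 as germ cell regulators and 7 in testis structure or metabolism, and 4 belong to the X-linked Xlr family. DNA methylation itself was not measured.

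The series asked how gene expression in ES cells changed with a stable transgene for Nup98-HoxA9, the leukemia fusion that joins the N-terminal FG-repeat region of human Nup98 to the C-terminus of HoxA9. Total RNA from parental EB3 ES cells, from the Nup98-HoxA9 ES clones #1 and #9 and from a HoxA9-Ct ES clone, which carried the HoxA9 C-terminus alone, was hybridised to one-colour Agilent arrays, 1 array per line. The transgenic lines were FLAG-tagged clones picked as colonies after Tol2 transposon delivery and hygromycin B selection, so each is 1 clone, and the parental cells had gone through neither step. All lines were grown on gelatin with LIF.

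Many germ cell genes have CpG-rich promoters that become methylated when the embryo implants, and they stay closed in somatic cells. ES cells hold many of them under a further layer of repression, in which E2F6, Max and Mga, which bind E2F and E-box sites, bring a Polycomb-type complex to the promoter. The members include Dazl and Ddx4, RNA regulators that mark germ cells, Mael and Piwil2, which keep transposons silent through small RNAs, and Sycp1 and Sycp3, which build the synaptonemal complex between paired chromosomes.

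Nup98-HoxA9 clone #9 stood apart in these genes. Of the 36 members, 25 (69.4%) had their highest signal in clone #9, against 2 each in the parental line and clone #1 and 7 in HoxA9-Ct. The 36 include 5 members that were not well above background in any line. Among probes with a signal well above background on any array, clone #9 was the highest line for 21 of 31 members (67.7%) and for 23.7% of all such probes, but Tdrkh, Xlr3a and Xlr4a passed through clone #9 alone and so had to be highest there. Where a probe was well above background in every line, it was the highest line for 17 of 27 members (63.0%) and for 20.8% of 25529 probes. The Xlr genes differed most, Xlr3b being 84.6-fold higher in clone #9 than in the parental line, while Dkkl1, Sohlh2, Dazl, Mov10l1, Smc1b and Tex101 were between 2.16-fold and 5.39-fold higher. Clone #1, which carried the same fusion, did not share most of these differences. Tex13b had its highest level in HoxA9-Ct ES cells, at 13.6-fold over the parental line. Each of these comparisons sets 1 array beside another, so the line, its culture and its RNA sample cannot be told apart.

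All levels below are log2 signals relative to the 75th percentile of the same array, so 0 is the 75th percentile and a difference of 1 is 2-fold. A probe is called well above background by the flag that the scanner software set. The lowest log2 level so flagged was between -4.62 and -4.23 on the 4 arrays, and spots of the same probe varied with a median SD between 0.105 and 0.118. Spots well above background made up 49.9% to 53.0% of each array, and no spot was saturated. ES cell identity was checked with 10 pluripotency markers, among them Pou5f1, Sox2 and Esrrb, which were all well above background in all 4 lines, with median differences from the parental line between -0.11 and 0.04.

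Most members gave a signal well above background in these cells, which does not show whether their promoters were methylated or the genes silenced. In parental ES cells 28 of 36 members (77.8%) were well above background at their brightest probe, as were 64.1% of the 20257 named genes read in the same way. The counts were 27 and 31 in clones #1 and #9, and 28 in HoxA9-Ct (75%, 86.1% and 77.8%), beside 65.0%, 68.0% and 64.4% of named genes. By single probes, 30, 30, 37 and 32 of the 44 member probes were well above background. In 27 members the probe was well above background in all 4 lines. Asz1 and Tdrd1, both of the piRNA machinery, the axial element gene Sycp2, the testis dipeptidase Dpep3 and Xlr5a did not stand well above background in any line, with log2 values between -6.69 and -5.45. Tdrkh, Xlr3a and Xlr4a were well above background in clone #9 alone, and the carrier gene Slc25a31 in all lines but clone #1.

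Reference promoters, 300 bases each with 250 before the start site, were taken from RefSeq on GRCm38.p6 for 31 of the 36 genes, in 36 promoters. Tex11, Dmrt1, Dppa3, Tex15 and Piwil2 had no entry. The member promoters held a median of 20 CpG dinucleotides, against 7 over the 32851 promoters in the table. Of the 31 genes, 28 (90.3%) had a promoter with 10 or more CpG, compared with 45.8% of all 27025 genes. The other 3 were Xlr3a, Xlr3b and Xlr4a, with 5, 7 and 8 CpG.

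The E-box CACGTG, which reads the same on both strands, was found in a promoter of 13 of the 31 members (41.9%) and of 8.09% of all genes. Among genes with a CpG-rich promoter, those with 10 or more CpG, the shares were 46.4% and 11.8%. The E2F-like motif GCGGGA, searched on both strands, was found in 11 members (35.5%) and in 22.1% of all genes, but among CpG-rich promoters the shares were 39.3% and 42.4%, so it was no more frequent in members there. Both motifs, which can share at most 1 base, were found in 7 members (22.6%) and in 2.65% of all genes. Among genes with a CpG-rich promoter the shares with both were 25% and 5.15%. By role, an E-box was found in 6 of 8 piRNA genes, 4 of 7 meiotic genes, 2 of 5 regulators, 1 of 7 testis genes and 0 of 4 Xlr genes.

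The following promoters show the motifs, in capitals, upstream of the start site: Hormad1 (chr3:95559567-95559676, plus strand) and Sycp3 (chr10:88459427-88459586, plus strand), each with 1 E2F-like motif followed by 2 E-boxes, Ddx4 (chr13:112652311-112652460, minus strand), with 1 of each, and Stk31 (chr6:49395409-49395538, plus strand), with 1 E-box.
Hormad1: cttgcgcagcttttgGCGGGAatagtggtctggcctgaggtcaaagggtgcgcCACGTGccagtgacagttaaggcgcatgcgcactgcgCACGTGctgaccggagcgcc
Sycp3: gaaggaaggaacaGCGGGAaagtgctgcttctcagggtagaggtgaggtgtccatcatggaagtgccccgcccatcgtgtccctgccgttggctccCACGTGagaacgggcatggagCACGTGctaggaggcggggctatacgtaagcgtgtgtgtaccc
Ddx4: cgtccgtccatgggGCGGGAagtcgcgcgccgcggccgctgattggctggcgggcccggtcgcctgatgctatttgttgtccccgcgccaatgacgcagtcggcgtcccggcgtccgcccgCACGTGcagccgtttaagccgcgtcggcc
Stk31: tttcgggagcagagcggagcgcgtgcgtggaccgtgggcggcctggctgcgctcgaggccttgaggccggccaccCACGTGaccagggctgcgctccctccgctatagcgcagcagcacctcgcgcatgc

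A further set of promoters, with each CpG in capitals, set the CpG-rich Dazl (chr17:50293621-50293740, minus strand, 11 CpG in 120 bases) and Tex13b (chrX:140813434-140813553, minus strand, 8 CpG) beside the Xlr genes whose levels differed most, Xlr3b (chrX:73192059-73192178, plus strand, 3 CpG) and Xlr4a (chrX:73082508-73082627, minus strand, 4 CpG). None of these stretches held either motif.
Dazl: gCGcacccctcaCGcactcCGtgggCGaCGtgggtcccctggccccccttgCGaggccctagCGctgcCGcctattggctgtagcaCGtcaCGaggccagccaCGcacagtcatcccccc
Tex13b: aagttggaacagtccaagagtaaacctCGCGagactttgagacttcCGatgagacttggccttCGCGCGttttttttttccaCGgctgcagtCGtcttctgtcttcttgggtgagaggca
Xlr3b: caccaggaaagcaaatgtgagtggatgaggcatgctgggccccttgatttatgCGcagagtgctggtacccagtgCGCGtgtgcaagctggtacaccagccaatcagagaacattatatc
Xlr4a: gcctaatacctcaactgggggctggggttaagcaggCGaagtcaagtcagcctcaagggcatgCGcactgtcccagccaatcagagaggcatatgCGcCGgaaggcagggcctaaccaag

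**Figure D1:**
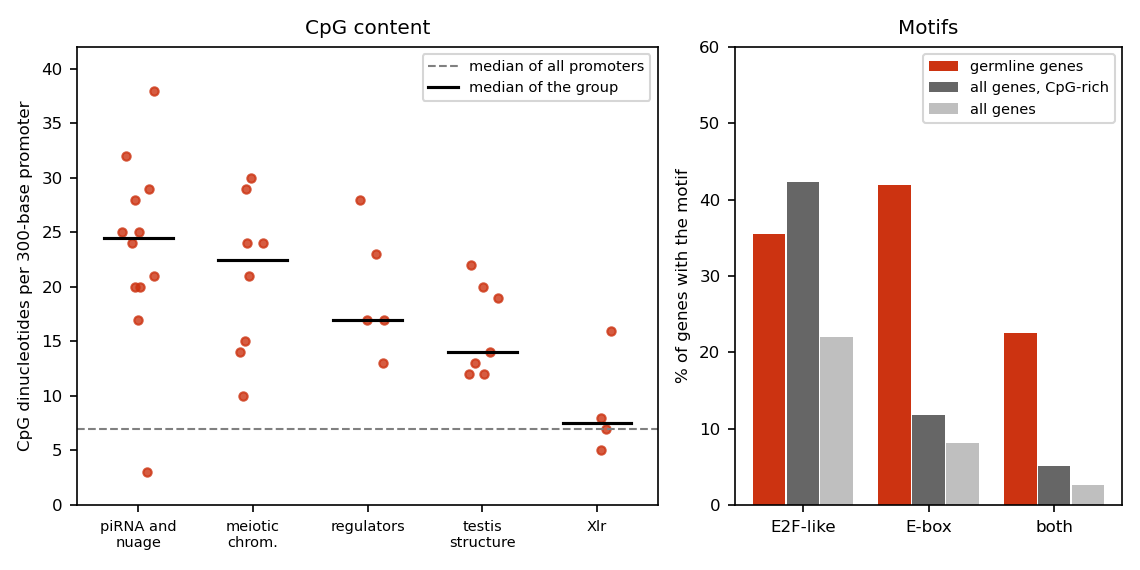
Left, CpG dinucleotides in each 300-base reference promoter of the members by role (1 point per promoter, black lines the group medians, dashed line the median of all promoters, 7). Right, percent of genes with an E2F-like motif, an E-box or both in a promoter, for the members (red), genes with a CpG-rich promoter (dark grey) and all genes (light grey). The E-box bar of the members stands at 41.9%, above both grey bars.

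The Xlr genes, X-linked relatives of the synaptonemal protein gene Sycp3, are first in size. Xlr3b had log2 levels of -3.40 in parental cells, -0.69 and 3.0 in clones #1 and #9, and -0.56 in HoxA9-Ct. All 3 transgenic lines therefore lay above the parental line, by 6.58-fold, 84.6-fold and 7.19-fold, and clone #9 lay 12.9-fold above clone #1. A further probe for Xlr3b gave -4.50, -1.75, 1.99 and -1.70 in the same order, with the parental line not well above background, so the order of the lines was the same.

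Xlr4a was at -6.21, -6.31, -0.89 and -5.41 in parental, clone #1, clone #9 and HoxA9-Ct cells, and Xlr3a at -6.13, -5.63, -1.70 and -6.07. In both genes clone #9 was the lone line above background. Clone #9 exceeded the parental line by at least 10.4-fold at Xlr4a and at least 5.95-fold at Xlr3a, where the parental level was set to the lowest signal well above background on its array. The further Xlr4a probe was also well above background in clone #9 alone, at -2.01. For Xlr5a the flag was not set in any of the 4 lines.

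Xlr genes outside the 36, looked up after the members' values had been seen, showed the same line. Xlr4b, Xlr5b and 1 probe for Xlr5c were well above background in clone #9 only, by at least 11.8-fold, 2.88-fold and 3.71-fold over the parental line, whereas Xlr and the remaining Xlr5c probe were not well above background in any line. The Xlr genes are close copies of each other on the X chromosome, so a probe may take signal from more than 1 of them, and their values are not independent.

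Among the germ cell regulators, Sohlh2, a helix-loop-helix factor of early spermatogonia and oocytes, was at 1.03 in parental cells, 1.58 and 2.41 in clones #1 and #9, and 1.02 in HoxA9-Ct. Dazl, which promotes translation of germ cell mRNAs, was at -0.78, -0.23, 0.45 and -0.60. Brdt, the testis bromodomain protein, was at -1.58, -1.15, -0.58 and -1.15. For these 3 genes clone #9 was highest, at 2.61-fold, 2.35-fold and 2.0-fold over the parental line, and clone #1 lay between, at 1.47-fold, 1.47-fold and 1.34-fold. Brdt had a further probe that was well above background in clone #9 only.

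Dppa3 (Stella), which protects methylation of the maternal genome after fertilisation, went the other way: -1.81, -2.33, -3.43 and -1.85, so that clone #9 held 0.326 of the parental signal. It was the only member over 2-fold lower in clone #9. Taf7l, a germ cell subunit of TFIID, was level at 2.16, 2.16, 2.18 and 2.11. Dmrt1, a testis-determination factor, was at -0.86, -0.76, -0.94 and -1.16.

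Tex13b, an X-linked testis gene, was the member with the largest difference in HoxA9-Ct ES cells. Its levels were -2.18 in parental cells, -3.80 and -1.33 in clones #1 and #9, and 1.59 in HoxA9-Ct. HoxA9-Ct was 13.6-fold above the parental line, 42-fold above clone #1 and 7.58-fold above clone #9, and the Nup98-HoxA9 clones lay on opposite sides of the parental line, 5.54-fold apart. A single probe read this gene.

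**Figure D2:**
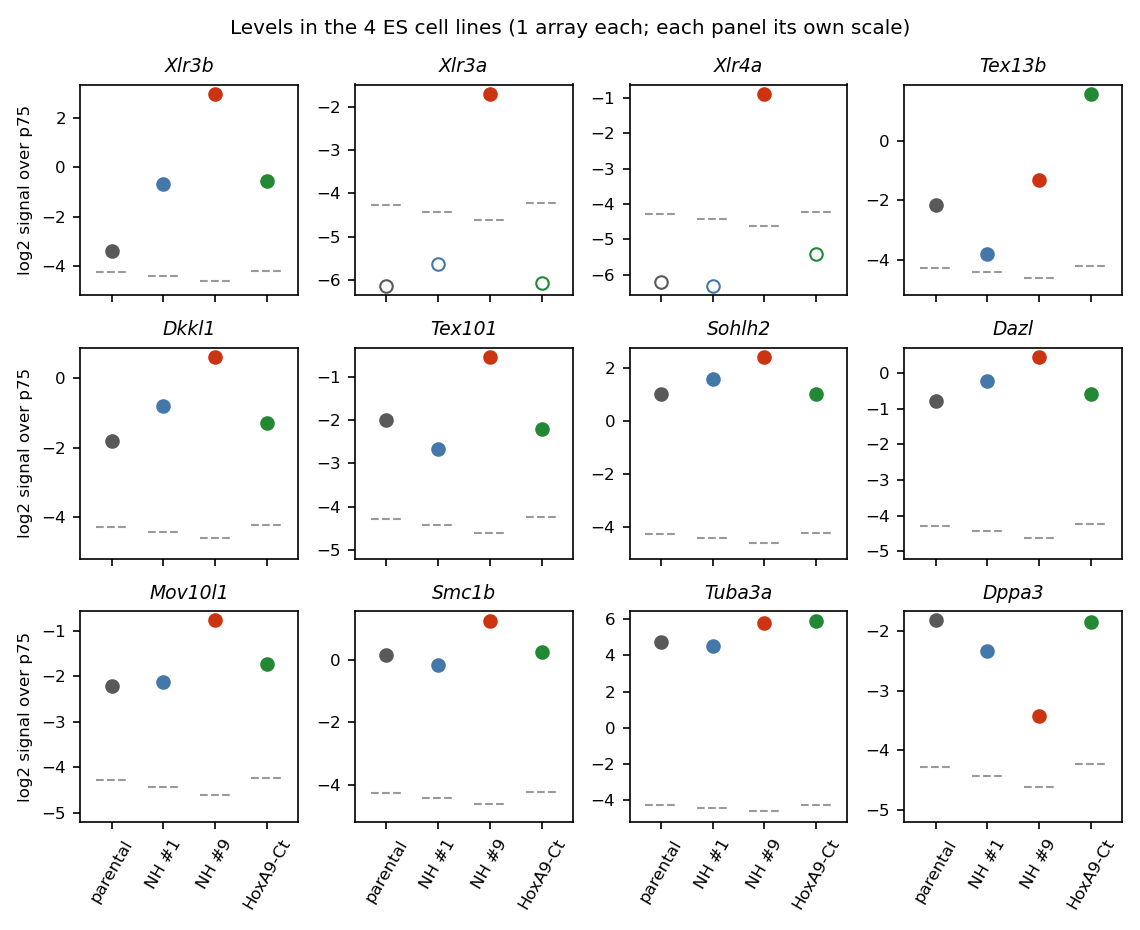
Log2 signal relative to the array's 75th percentile (p75) of 12 members in parental, Nup98-HoxA9 (NH) clone #1, NH clone #9 and HoxA9-Ct ES cells, 1 array each, with a scale of its own in each panel. Filled circles were well above background, open circles were not, and dashes mark the lowest level well above background on that array. Clone #9 is the highest point in all panels but Tex13b and Tuba3a, where HoxA9-Ct is, and Dppa3, where it is the lowest.

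In the piRNA group the differences were smaller. Mov10l1, the helicase that handles piRNA precursors, was at -2.21, -2.12, -0.77 and -1.73 in parental, clone #1, clone #9 and HoxA9-Ct cells, which put clone #9 at 2.73-fold over the parental line. Stk31, a tudor domain protein, was at -2.34, -1.82, -1.29 and -1.83, with clone #9 at 2.07-fold. Tdrkh, a tudor protein that binds Piwi proteins, was at -5.22, -5.19, -2.92 and -4.61 and was thus at least 2.56-fold higher in clone #9 than in the parental line.

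Mael was at 2.25, 2.31, 2.99 and 2.71, and was 1.67-fold higher in clone #9. Piwil2 was at -1.71, -1.66, -1.52 and -1.22, with HoxA9-Ct the highest line. Ddx4, the Vasa helicase, was at 0.42, 0.71, 0.63 and 0.01. Fkbp6, a co-chaperone of the pathway, was at -0.43, -0.86, -0.85 and -0.18, with both clones below the parental line. These 4 genes differed by less than 2-fold between each transgenic line and the parental line.

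Among genes of the meiotic chromosome, Smc1b, a meiosis-specific cohesin subunit, was at 0.14, -0.17, 1.26 and 0.26, which was 2.16-fold higher in clone #9 than in parental cells. Sycp1, the transverse filament of the synaptonemal complex, was at -2.69, -2.89, -1.97 and -3.24. Syce1, of its central element, was at 2.73, 2.81, 3.26 and 3.13. Smc1b was the only meiotic gene over 2-fold from the parental line in any of the transgenic lines.

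Of the remaining meiotic genes, Sycp2 was not well above background, and Sycp3, Stag3, Hormad1 and Tex11 differed by less than 2-fold between any transgenic line and the parental line. Sycp3 was at 1.37, 1.09, 1.36 and 1.16 and the cohesin gene Stag3 at 2.04, 1.70, 2.19 and 2.09. Hormad1, an axis protein, was at -1.15, -1.34, -1.09 and -0.97, and Tex11, which acts in crossing over, at 0.20, -0.14, 0.24 and 0.20. Tex15, needed for meiotic break repair, was at -2.17, -3.0, -2.56 and -1.88, so both clones lay below the other lines and HoxA9-Ct was 2.18-fold above clone #1.

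Mov10l1 and Smc1b lie on chromosome 15, where the median difference of all 637 probes well above background in every line was 0.40 between clone #9 and the parental line. Over all other placed chromosomes it was -0.09. The differences of the genes themselves were 1.45 and 1.11, and the part of the chromosome in them was not tested.

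Of the testis genes, Dkkl1, an acrosomal protein, was at -1.81 in parental cells, -0.80 and 0.62 in clones #1 and #9, and -1.30 in HoxA9-Ct, and was 2.02-fold and 5.39-fold higher in the clones. Tex101, a surface protein of germ cells needed for sperm function, was at -1.99, -2.67, -0.54 and -2.22, so that clone #9 was 2.73-fold above the parental line while clone #1 was below it. Slc25a31, the germ cell ADP/ATP carrier, was at -3.79, -4.98, -2.89 and -3.55, the clone #1 value being not well above background. Clone #9 was the highest of the 4 lines for each of these genes.

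Tuba3a, a testis alpha-tubulin, was at 4.73, 4.52, 5.77 and 5.91. Clone #9 and HoxA9-Ct were 2.06-fold and 2.26-fold above the parental line, and its other probe gave 2.10-fold and 2.31-fold. Rpl10l, a retrogene copy of a ribosomal protein gene, was at 5.08, 4.81, 5.52 and 4.72, and Tex14, which keeps the bridges between germ cells, at 1.47, 1.52, 1.72 and 1.59. Tuba3a and Rpl10l have close relatives expressed elsewhere, and their probes may take signal from these.

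**Figure D3:**
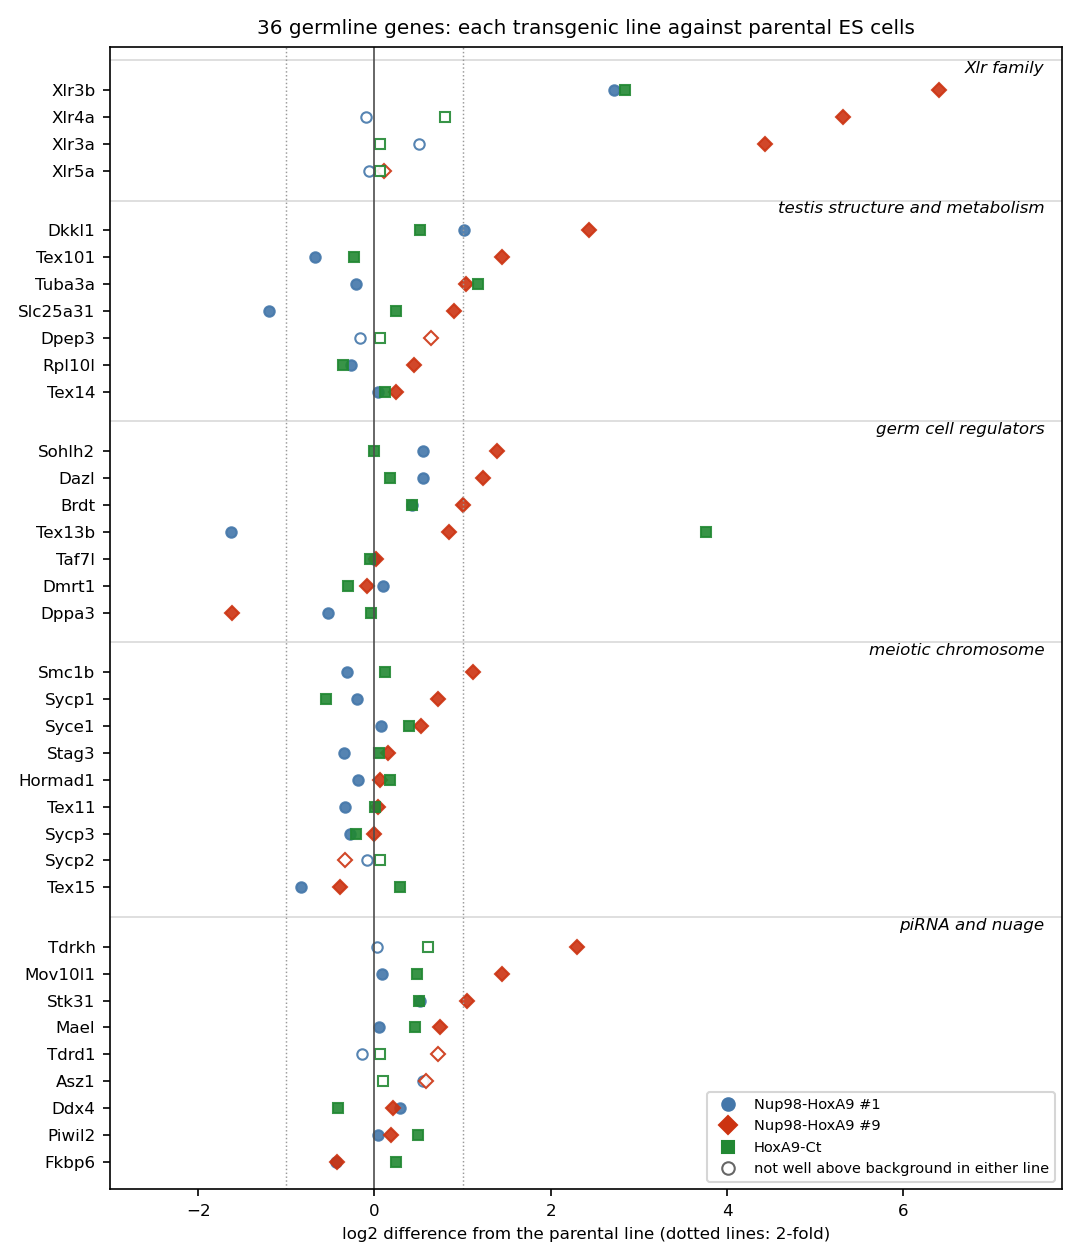
Log2 difference of clone #1 (blue circles), clone #9 (red diamonds) and HoxA9-Ct (green squares) from the parental line for all 36 members, by role; dotted lines mark 2-fold, and open symbols mark pairs in which neither line was well above background. Most red diamonds lie to the right of 0 (30 of 36, open symbols included), with Xlr3b at 6.40, and the green square of Tex13b lies alone at 3.77.

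Over all 36 members, the median log2 difference from the parental line was -0.08 and 0.68 for clones #1 and #9, and 0.12 for HoxA9-Ct, beside medians over all probes of -0.10, -0.27 and 0.06. In clone #9, 30 of 36 members lay above the parental value, and 32 of 36 lay above clone #1, with a median of 0.63 between the clones and of -0.17 over all probes. Both counts include members not well above background in either line compared, where the sign of a difference is not reliable. For the 28 members well above background in both clone #9 and the parental line the median was 0.63. Of these, 23 lay above 0, as did 36.7% of all such probes. Where both clones were well above background, 24 of 27 members were higher in clone #9, as were 38.7% of all such probes. Between these clones the root mean square SD was 0.833 for the 27 members and 0.337 for all 26871 probes above background in both.

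Counts of members over 2-fold apart were read against the same count over all probes, with values below the lowest signal well above background raised to it and probes taken only if well above background on either array. In clone #9, 12 of 31 members were over 2-fold higher than in the parental line, where 5.58% of all probes were, and 1 was lower, where 3.33% were. The 12 were Tdrkh, Mov10l1, Stk31, Smc1b, Dazl, Sohlh2, Tex101, Dkkl1, Tuba3a, Xlr3a, Xlr3b and Xlr4a. Tdrkh, Xlr3a and Xlr4a, which are counted in the 12, passed the filter through clone #9 alone. The filter thus favoured a higher value there, though it did not set its size.

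In clone #1, 2 of 28 members were over 2-fold higher than in the parental line (Dkkl1 and Xlr3b; 2.36% of all probes) and 1 was lower (Tex13b; 3.02%). In HoxA9-Ct, 3 of 28 were higher (Tex13b, Tuba3a and Xlr3b; 1.35%) and 0 were lower (0.82%). Between the clones, 11 of 31 members were over 2-fold higher in clone #9 (4.22% of all probes) and 1, Dppa3, was lower (1.49%). Tdrkh, Xlr3a, Xlr4a and Slc25a31 passed the filter between the clones through clone #9 alone. Xlr3b was the only member over 2-fold above the parental line in all 3 transgenic lines, and Dkkl1 and Xlr3b were the members that were so in both clones. These are values of single arrays with no test, and the comparisons with the parental line share its 1 array.

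**Figure D4:**
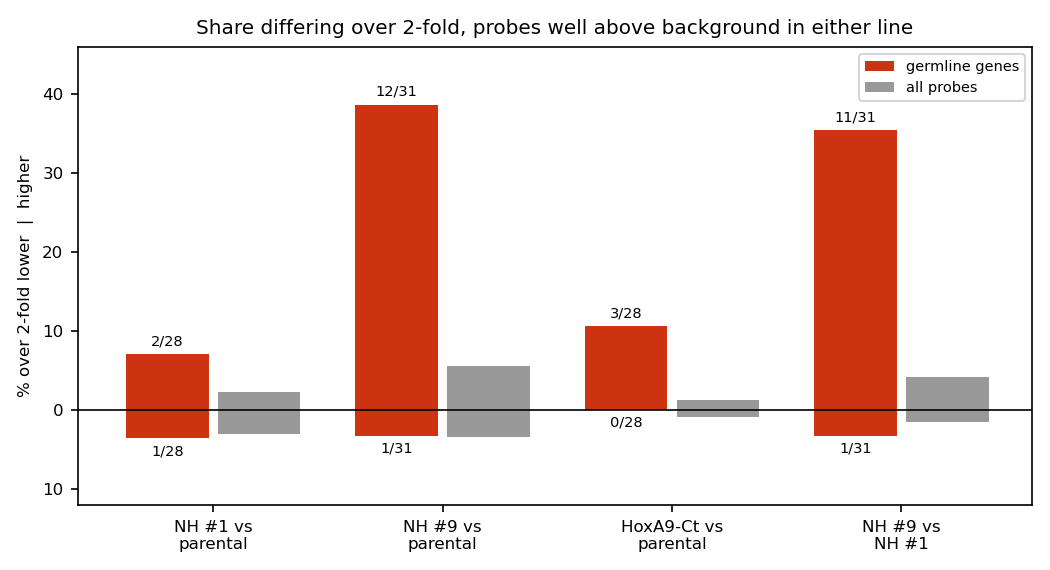
Percent of the germline genes (red) and of all probes (grey) over 2-fold higher (upward bars) or lower (downward bars) in 4 comparisons of single arrays, for probes well above background in either line; NH, Nup98-HoxA9, and the fractions give the members. The red bars of clone #9 reach 12 of 31 and 11 of 31, where the grey bars stand at 5.58% and 4.22%.

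Of the 12 members over 2-fold higher in clone #9, all with a reference promoter, 2 held an E-box (Mov10l1 and Stk31), 2 an E2F-like motif (Smc1b and Tuba3a) and 0 both. Of the 19 other members with a promoter, 11 held an E-box, 9 an E2F-like motif and 7 both. As the 12 were chosen by their values, this is a description with no test.

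A limma fit over all 55562 probes took the spread from the Nup98-HoxA9 clones, the only line type with a replicate, and assumed it for the other lines. The fit had 1 residual degree of freedom. In this setting limma gave infinite weight to the spread common to all probes (the prior), so every probe had the same SD of 0.454. The fit thus acted as a size threshold, and the disagreement of the clones at a given gene did not enter. Nup98-HoxA9 against parental, 3 members were called higher at an adjusted p under 0.05 (0.781% of all probes) and 0 lower (0.625%). They were Xlr3b (log2 difference 4.56 ± 0.56 SE, adjusted p = 3.0e-13), Xlr4a (2.61, adjusted p = 5.4e-04) and Xlr3a (2.47, adjusted p = 0.0015). Xlr4a and Xlr3a rested on clone #9, and with the parental line at its detection limit the mean of the clones was at least 1.6-fold and 1.53-fold higher.

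HoxA9-Ct against parental, 2 members were called higher by limma (0.216% of all probes), Tex13b (3.77 ± 0.64 SE, adjusted p = 5.5e-06) and Xlr3b (2.85, adjusted p = 0.0041), and 0 lower (0.189%). Nup98-HoxA9 against HoxA9-Ct, 1 was called higher, Xlr3a (0.673% of all probes; fitted difference 2.40, adjusted p = 0.0025, against a HoxA9-Ct value not well above background, so at least 1.48-fold), and 1 lower, Tex13b (-4.16, adjusted p = 9.6e-11; 0.688%). At an unadjusted p under 0.05 the counts in these 3 comparisons were 5, 2 and 4 higher and 0, 0 and 1 lower of 36, where 3.26%, 2.11% and 2.75% of all probes were higher and 2.99%, 1.4% and 3.79% lower. Xlr3b did not pass between the transgenic groups in this fit (1.71, adjusted p = 0.11), nor did its other probe (1.82, limma adjusted p = 0.068). It was called higher in Nup98-HoxA9 than in HoxA9-Ct with normexp and with values raised to the detection limit.

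Xlr3a was not called with normexp, which put it at 0.38 above HoxA9-Ct (adjusted p = 0.99) and 0.71 above parental cells (adjusted p = 0.12), nor with values raised to the detection limit, at 1.17 (adjusted p = 0.11) and 1.21 (adjusted p = 0.073). Xlr4a against parental was not called with normexp (0.75, adjusted p = 0.070). None of these calls held when the fit was limited to the 30517 probes with a signal well above background on any array, where limma called 0 probes in each of the 3 comparisons (2224, 992 and 2136 at an unadjusted p under 0.05), and 0 members were called after quantile normalization or from the submitters' value table. With a spread that followed intensity and was robust to outlying probes, limma called other members, Dkkl1 (1.72) and Sohlh2 (0.97), in which both clones lay above the parental line, and none of the 4 above. Neither had passed in the first fit (adjusted p = 0.11 and 1.00). With normexp, Dkkl1 and Sohlh2 were also called higher in Nup98-HoxA9, against both parental and HoxA9-Ct cells. Against parental cells the members called with normexp were thus Dkkl1, Sohlh2 and Xlr3b. With values raised to the detection limit they were Dkkl1, Xlr3b and Xlr4a.

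Of 42 other germline genes with a probe, 29, 32, 34 and 31 were well above background in parental, clone #1, clone #9 and HoxA9-Ct cells. Their median difference from the parental line was -0.05 and 0.29 for clones #1 and #9, and 0.11 for HoxA9-Ct. The medians over all probes were -0.10, -0.27 and 0.06. In this list 29 of 42 genes were higher in clone #9 than in clone #1, where the median difference over all probes was -0.17. Limma called 3 higher in Nup98-HoxA9 than in parental cells and 0 lower (0.781% and 0.625% of all probes). At an unadjusted p under 0.05 the counts were 7 and 2 (3.26% and 2.99% of all probes). Stra8, which starts meiosis on retinoic acid, was at 1.97, 4.10, 6.18 and 2.31 in parental, clone #1, clone #9 and HoxA9-Ct cells (3.18, adjusted p = 4.2e-06). Hormad2, a meiotic axis gene, was at -4.72, -1.68, -0.87 and -3.79 and Rhox5, an X-linked homeobox gene that responds to loss of methylation, at 4.99, 7.06, 7.49 and 4.88 (adjusted p = 2.9e-07 and 0.0050). The mean of the clones was at least 8.02-fold above the parental Hormad2 value, which was not well above background, and the Rhox5 difference was 2.29. These 3 genes were higher in both clones than in the other lines. Against HoxA9-Ct, the same 3 and Dnajb13, a sperm axoneme gene (adjusted p = 0.030, at least 2.95-fold over a HoxA9-Ct value not well above background), were called higher, as were 0.673% of all probes. None of these calls held after quantile normalization or over probes well above background on any array, where limma called 0 probes.

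Of 12 primordial germ cell genes, 0 were called higher in Nup98-HoxA9 than in parental cells (1 at an unadjusted p under 0.05) and 1 lower. Over all probes 0.781% were called higher and 0.625% lower, and 3.26% were higher at an unadjusted p under 0.05. The lower gene was Prdm1, the factor that founds the lineage, at -0.55, -2.99, -3.18 and -0.94 (-2.54, adjusted p = 9.3e-04). The medians of this list lay between -0.11 and 0.05. A list of 29 genes with a probe held factors that silence germline promoters together with Tet2, Tet3 and Tdg, which act in removing DNA methylation. All were well above background in every line, with medians, pooled over both kinds, of -0.10, -0.12 and -0.01. In this list 0 were called in any comparison (1 at an unadjusted p under 0.05, lower in Nup98-HoxA9 than in HoxA9-Ct). Chosen after the values were seen, the de novo methyltransferase genes Dnmt3a (1.21, 0.44, 0.39 and 1.1) and Dnmt3b (6.15, 5.68, 5.46 and 6.24) were lower in both clones, without passing the test. The related gene Dnmt3l was at 6.14, 5.36, 5.81 and 6.75. Clone #9 minus clone #1 was -0.05, -0.22 and 0.46 at Dnmt3a, Dnmt3b and Dnmt3l. The maintenance enzyme gene Dnmt1 was at 2.96, 2.92, 2.75 and 2.97.

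The summed signal of markers of late spermatogenic cells, of oocytes and of Sertoli or Leydig cells was no higher in clone #9 than in the parental line. Of 12 late spermatogenic markers, 2, 5, 4 and 3 were well above background in parental, clone #1, clone #9 and HoxA9-Ct cells, and their summed signal, in units of the 75th percentile, was 0.503 in clone #9 and 0.625 in parental cells. Of 10 oocyte markers 4 were above background in each line, with sums of 2.81 and 3.42, and of 8 Sertoli and Leydig markers 4, with sums of 7.26 and 7.95. In the Sertoli and Leydig list Gata4 was called higher in Nup98-HoxA9 than in HoxA9-Ct (3.04) and Wt1 lower than in parental cells (-2.27).

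Markers of other ES culture states did differ between the lines. Of 5 markers of cells resembling the early cleavage embryo, 5 were well above background in parental, clone #9 and HoxA9-Ct cells and 2 in clone #1, with summed signals of 26.8, 36.9, 24.4 and 14.4 in that order. They are named here after their values were seen. Zscan4c was at 2.73, -0.17, 4.65 and 2.62 in parental, clone #1, clone #9 and HoxA9-Ct cells. Tcstv1, Tcstv3 and Usp17lc were also highest in clone #9, at 2.08-fold, 2.91-fold and 2.88-fold over the parental line. In clone #1 these genes were not well above background. Zfp352 was the exception, at 4.31, 3.75, 3.42 and 4.16, lowest in clone #9. Of 6 primitive endoderm markers, 5, 6, 6 and 2 were above background in the same order, with sums of 0.955, 3.28, 4.19 and 0.464. Limma called Gata6 (2.38, adjusted p = 0.0028), Sox17 (2.01, adjusted p = 0.026) and Pdgfra (adjusted p = 2.9e-04, at least 6.48-fold) higher in Nup98-HoxA9 than in parental cells. Against HoxA9-Ct it called Gata6 (3.77), and also Sox17, Dab2, Pdgfra and Foxa2, at least 10.9-fold, 10.6-fold, 7.39-fold and 6.38-fold over HoxA9-Ct values not well above background. Sox17 was called lower in HoxA9-Ct than in parental cells (adjusted p = 0.0023). Over all probes, 0.781%, 0.673% and 0.189% were called in these comparisons and directions, in that order. The part of these markers in the members' levels was not tested. The RNA came from whole cultures, in which a higher level in every cell and more cells that express the gene cannot be told apart.

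**Figure D5:**
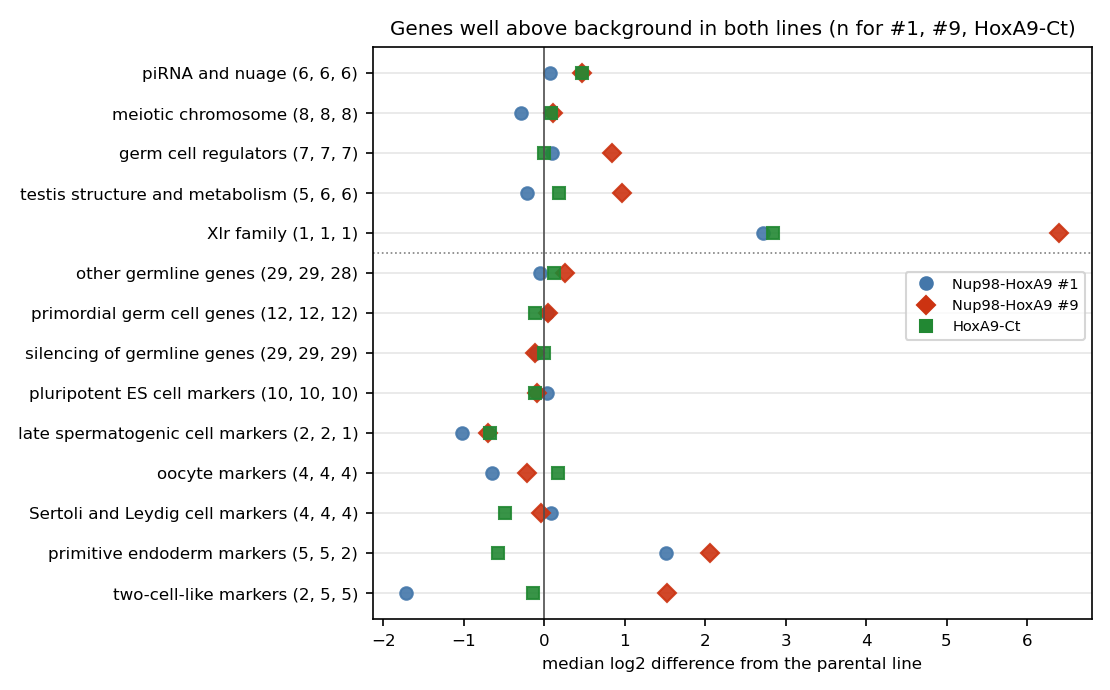
Median log2 difference from the parental line of each gene list in clone #1 (blue circles), clone #9 (red diamonds) and HoxA9-Ct (green squares), over the genes well above background in both lines compared, whose numbers for clone #1, clone #9 and HoxA9-Ct stand in brackets; the 5 roles of the members are above the dotted line. Clone #9 lies at 0.47, 0.84 and 0.97 for the piRNA, regulator and testis groups and at 0.11 for the meiotic group, and the Xlr points are Xlr3b alone.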

How the data were processed

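Total RNA of 4 ES lines was labelled with Cy3 and hybridised to Agilent mouse arrays, 1 array per line. Per the submitters' processing notes, images were extracted with Agilent Feature Extraction 10.10.1.1, and the deposited files hold the intensity of each spot, background-subtracted within the array but not scaled between arrays. The submitters' value table held these intensities times a constant of each array. The groups came from the labels. The members and all gene lists were chosen with earlier results of these data known.

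From these files, control spots and spots with outlier marks were left out, spots of a probe were averaged, and log2 intensity minus the 75th percentile of the array was used. Probes were named through RefSeq accessions (26762 of 55681), and probe positions are not given. Every member was named, with its 4 values where its brightest probe was well above background on at least 1 array. Of the other lists, genes called by limma were named, up to 5 a list. Differences were tested with limma 3.58.1 (R 4.3.3) over all probes with Benjamini-Hochberg adjustment at 0.05, in 3 groups of 1, 2 and 1 arrays. The spread between clones is all that these p-values measure, and with 4 arrays it is poorly known. The script was tested on simulated data with the same SD for every probe, which the real probes need not share. Of 50 probes changed by a log2 of 1, 2, 3 or 4, it recovered 1, 27, 43 and 50, with 7 false calls. Folds against a value not well above background are given as bounds; log2 differences from limma and medians over all genes of a list used the values as measured. The normexp alternative (offset 50) used the median signal of each spot. Reference promoters came from RefSeq on GRCm38.p6 and were counted with Python 3.11.15.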

Additional observations from a re-analysis of the deposited data

Results flagged for a closer look

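At 2 members the limma test of Nup98-HoxA9 against HoxA9-Ct, which is the test of whether their differences from the parental line differ, was passed. At Tex13b the difference, Nup98-HoxA9 minus HoxA9-Ct, was -4.16 on the log2 scale (limma adjusted p = 9.6e-11), with both clones below HoxA9-Ct and 5.54-fold apart. At Xlr3a the fitted difference was 2.40 (limma adjusted p = 0.0025), where clone #9 alone was well above background and the bound was 1.48-fold. With normexp it was 0.38 (adjusted p = 0.99) and with values raised to the detection limit 1.17 (adjusted p = 0.11). Neither call held after quantile normalization, from the submitters' value table, over probes well above background on any array or with a spread following intensity. For Tex13b the limma adjusted p was 0.65, 0.20, 0.68 and 0.83 in that order. Each transgenic line is 1 picked clone, so transgene and clone cannot be told apart. The parental cells had gone through neither transposon delivery nor selection, so differences from them cannot be told apart from those steps either.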

How the results depend on the processing

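The main limit was that 1 array per line was measured, with 2 clones of Nup98-HoxA9 as the only replicates. The median difference of the members from the parental line, 0.26 over the mean of both clones, was 0.68 without clone #1 and -0.08 without clone #9, so its direction rested on clone #9. Under the other alternatives it was between 0.12 and 0.32. The median between clones, 0.63, was between 0.31 and 0.70, and that of HoxA9-Ct, 0.12, between 0.05 and 0.18. After quantile normalization, from the submitters' value table and over probes with a signal well above background on any array, 0 members were called in any comparison, against 3 higher in Nup98-HoxA9 than in parental cells, 2 higher in HoxA9-Ct than in parental cells, and 1 higher and 1 lower in Nup98-HoxA9 than in HoxA9-Ct. With the trended and robust spread, 0 were called higher in HoxA9-Ct than in parental cells, and 2 higher and 0 lower in Nup98-HoxA9 than in HoxA9-Ct. The count higher than HoxA9-Ct was 3 with normexp, and 2 with signals raised to the detection limit, with the mean over a gene's probes or without probes in the last eighth of the array. The weight given to the common spread, in prior degrees of freedom, was infinite in the main fit, with normexp and with signals raised to the detection limit. It was 0.82 after quantile normalization, 4.65 from the submitters' value table and 2.18 over probes well above background on any array. In those settings the disagreement of the clones at a gene did enter. Whether this changed the calls was not tested. Over all probes, limma called 781, 225 and 756 in the 3 comparisons, 0, 0 and 0 after quantile normalization and over bright probes, 140, 18 and 133 from the submitters' table, and 1243, 161 and 1284 with the trended spread. With normexp HoxA9-Ct against parental gave 73, with the floor 125 and without the last eighth 121. The median of all probes in clone #9 against parental was -0.27, and -0.03 after quantile normalization. Taking a member as detected by any of its probes, chosen after seeing the data, changed none of the detection counts. Fits without 1 clone had no residual degrees of freedom and were not run. No paired analysis was possible because only Nup98-HoxA9 had more than 1 array.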
